A study of Saccharomyces cerevisiae with 6 samples.

Results

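Signals of 10 genes of the cyclin-dependent kinase cycle of budding yeast were examined: the G1 cyclins *CLN1*, *CLN2* and *CLN3*, the B-type cyclins *CLB1* to *CLB6*, and *SIC1*, which encodes the inhibitor of the B-type cyclin kinases. They were matched by name in the annotation of the array platform, and all 10 were found, each with 1 probe set, among the 5498 *S. cerevisiae* probe sets tested and the 10928 probe sets of the array. RNA came from 3 cultures of strain YKG007, whose sole H2B is the mutant H2B K37A (alanine in place of lysine 37), and 3 cultures of strain YKG001, whose sole H2B is wild type, and the RNA of each culture was hybridized to its own Affymetrix yeast array. Both strains are *MATa* and lack the chromosomal *hta1-htb1* and *hta2-htb2* gene pairs, deleted with *LEU2* and *TRP1*. H2A and Flag-tagged H2B come from a centromeric *HIS3* plasmid, pKG2 (*HTA1-Flag-htb1* with K37A) in YKG007 and pZS145 (*HTA1-Flag-HTB1*) in YKG001. The shared background carries the nutritional alleles *his3D200*, *leu2D1*, *trp1D63* and *ura3-52* and the *LYS2* alleles *lys2D1* and *lys2-128d*. The wild-type H2B strain is thus itself a plasmid-shuffled, Flag-tagged strain, and each genotype is 1 strain. Cultures were grown side by side in YPD to mid-exponential phase at an OD600 of 1.0 and were not synchronized.

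A single kinase, Cdc28, drives the yeast division cycle by binding successive cyclins. Cln3 acts first in G1, with the transcription factor SBF as its target, and Cln1 and Cln2 then start budding and prepare the destruction of Sic1. Clb5 and Clb6 fire replication origins, Clb3 and Clb4 act in spindle assembly, and Clb1 and Clb2 drive mitosis until the anaphase-promoting complex destroys them. Transcripts of most of these genes come and go once per cycle, so that in an asynchronous culture a signal averages over cells in all phases. The share of cells in a phase and the RNA per cell cannot be told apart in such samples.

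The question put to the arrays was whether loss of lysine 37 of H2B changed the transcripts of these regulators. *CLN1* was lower in H2B K37A cells, *CLB4* was higher, and the other 8 genes did not pass the test. Each change was small: the largest difference, positive or negative, stayed below the 2-fold cutoff of the study. Signals are RMA log2 values, on which a difference of 1 is a doubling, and the test was limma with Benjamini-Hochberg adjustment over all 5498 probe sets and a threshold of 0.05. Of the 10 genes, 1 was higher and 1 was lower in H2B K37A cells, 20% in all, against 14.5% of all tested probe sets (6.44% higher and 8.08% lower), so the share is near the background. The 3 arrays of one strain lay entirely above or below the 3 of the other for 5 of the 10 genes, against 42.1% of all tested probe sets. The median difference of the 10 genes was 0.04, against 0.00 over all probe sets.

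**Figure D1:**
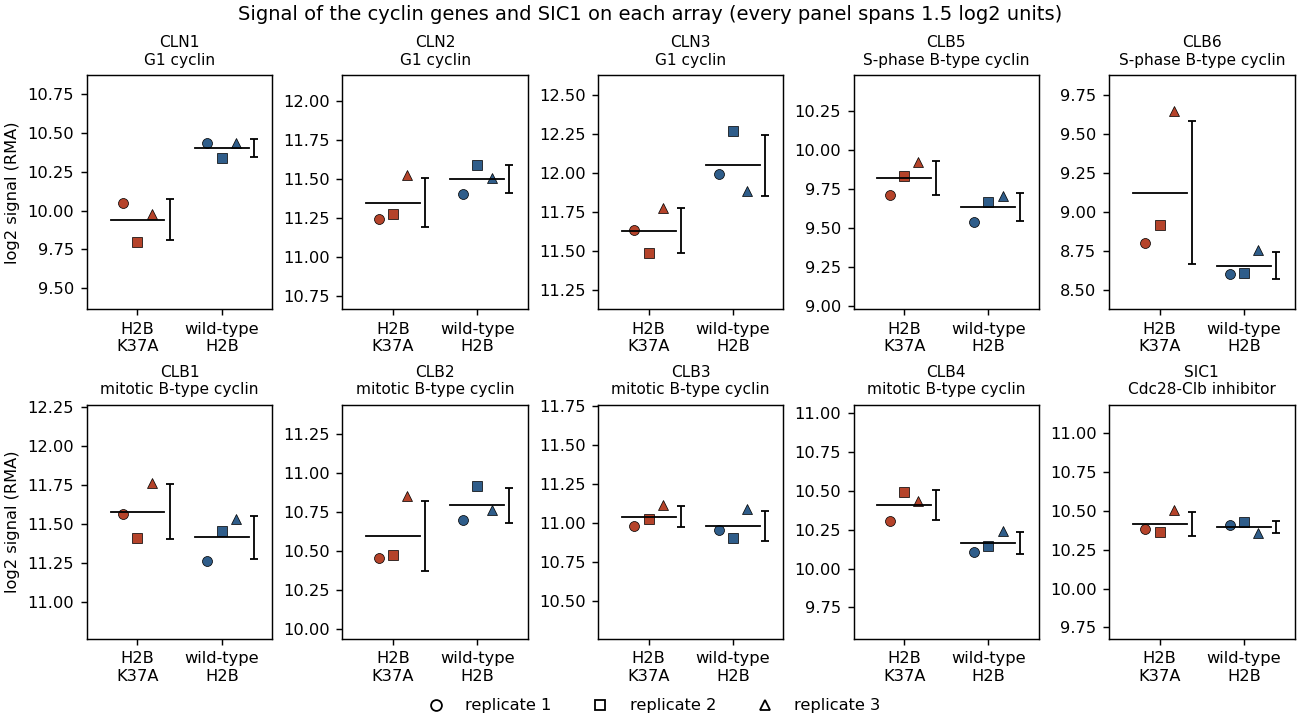
RMA log2 signal (vertical axis) of each gene on each array of H2B K37A cells (left) and wild-type H2B cells (right), with the mean as a line and the SD as a bar beside it; symbols mark the replicate number. The *CLN1* and *CLN3* points of H2B K37A cells lie below those of wild-type H2B cells, those of *CLB4*, *CLB5* and *CLB6* lie above, and the *CLB6* point of H2B K37A replicate 3, at 9.65, stands apart.

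All G1 cyclin signals averaged lower in H2B K37A cells, and that of *CLN1* passed the test. *CLN1* (YMR199W), which encodes a G1 cyclin of the late G1 wave, had log2 signals of 10.05, 9.80 and 9.98 in H2B K37A cells, against 10.43, 10.34 and 10.44 in wild-type H2B cells. Every H2B K37A array lay below every wild-type H2B array. The means were 9.94 ± 0.13 in H2B K37A cells and 10.40 ± 0.06 in wild-type H2B cells (SD, n = 3 each), which gives a log2 difference of -0.46 (standard error 0.07, 95% confidence interval -0.63 to -0.29) and a ratio of 0.727 (adjusted p = 0.0197 from limma). The sign was negative with any array left out, but the adjusted p from limma was 0.068 without H2B K37A replicate 2, and 0.0668, 0.0916 and 0.0588 without wild-type H2B replicate 1, 2 and 3.

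*CLN3* (YAL040C), the cyclin at the start of the G1 cascade, differed by almost as much, with a wider spread. Its log2 signals were 11.63, 11.49 and 11.78 in H2B K37A cells, against 12.00, 12.27 and 11.88 in wild-type H2B cells. The groups did not overlap, and the wild-type H2B arrays were themselves more widely spread than the H2B K37A arrays. The log2 difference was -0.42 (standard error 0.11, interval -0.69 to -0.14), a ratio of 0.748, and its adjusted p of 0.0556 from limma missed the threshold. It passed with an intensity trend in the variance model (adjusted p = 0.0329 from limma), with the values quantile normalized again (adjusted p = 0.0497 from limma) and with array weights (adjusted p = 0.00831 from limma, difference -0.57). It did not pass under the other alternatives, among them the replicate block (adjusted p = 0.0975 from limma) and all probe sets of the array (adjusted p = 0.101 from limma).

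*CLN2* (YPL256C), the close relative of *CLN1*, had log2 signals of 11.24, 11.27 and 11.53 in H2B K37A cells, against 11.40, 11.59 and 11.50 in wild-type H2B cells. H2B K37A replicates 1 and 2 lay below all wild-type H2B arrays and replicate 3 lay among them. The log2 difference of -0.15 (standard error 0.09, interval -0.36 to 0.06, adjusted p = 0.267 from limma) did not pass. A fall to a ratio of 0.779 and a rise to 1.04 both lie within its interval.

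Both S-phase cyclins had higher signals on every H2B K37A array than on any wild-type H2B array, and neither passed the adjusted p. Groups without overlap were common, at 42.1% of all tested probe sets. *CLB5* (YPR120C), the main S-phase cyclin, had log2 signals of 9.71, 9.83 and 9.93 in H2B K37A cells, against 9.54, 9.67 and 9.71 in wild-type H2B cells. The highest wild-type H2B array and the lowest H2B K37A array nearly touched. The log2 difference was 0.19 (standard error 0.07, interval 0.02 to 0.35, ratio 1.14, adjusted p = 0.114 from limma). The adjusted p from limma was 0.0373 with the replicate number as a block and 0.0394 with array weights.

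*CLB6* (YGR109C), the partner of *CLB5* in origin firing, had the largest difference of the 10 genes and the largest error. Its log2 signals were 8.80, 8.92 and 9.65 in H2B K37A cells, against 8.60, 8.61 and 8.76 in wild-type H2B cells. H2B K37A replicate 3 lay well above the other H2B K37A arrays, which in turn lay just above the wild-type H2B arrays. The means were 9.12 ± 0.46 in H2B K37A cells and 8.66 ± 0.09 in wild-type H2B cells (SD, n = 3 each), and the log2 difference was 0.47 (standard error 0.21, interval -0.04 to 0.98, ratio 1.38, adjusted p = 0.172 from limma). Without H2B K37A replicate 3 the difference was 0.20. The SD of *CLB6* within strains, 0.331, lay at the 99.6th percentile of all tested probe sets, whose median was 0.0676.

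Of the mitotic B-type cyclins, *CLB4* was called and its signal was higher in H2B K37A cells. *CLB4* (YLR210W), a spindle-acting cyclin, had log2 signals of 10.31, 10.49 and 10.43 in H2B K37A cells, against 10.11, 10.14 and 10.24 in wild-type H2B cells. The groups did not overlap. The means were 10.41 ± 0.09 in H2B K37A cells and 10.16 ± 0.07 in wild-type H2B cells (SD, n = 3 each), which gives a log2 difference of 0.24 (standard error 0.06, interval 0.10 to 0.39) and a ratio of 1.18 (adjusted p = 0.0456 from limma). This call lies close to the threshold: it held without H2B K37A replicate 1, and the adjusted p from limma lay between 0.0737 and 0.137 without any 1 of the other 5 arrays (differences of 0.20 to 0.28) and at 0.0968 over all probe sets of the array.

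*CLB3* (YDL155W), the paralog of *CLB4*, had log2 signals of 10.98, 11.03 and 11.11 in H2B K37A cells, against 10.96, 10.90 and 11.09 in wild-type H2B cells. The groups overlapped over most of their range. The difference of 0.06 (standard error 0.06, interval -0.09 to 0.20, adjusted p = 0.555 from limma) did not pass.

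*CLB2* (YPR119W), the main mitotic cyclin, had log2 signals of 10.46, 10.48 and 10.86 in H2B K37A cells, against 10.70, 10.92 and 10.76 in wild-type H2B cells. Only H2B K37A replicate 3 reached into the wild-type H2B range. The difference was -0.20 (standard error 0.12, interval -0.48 to 0.09, adjusted p = 0.279 from limma). Without that array it was -0.33 and passed (adjusted p = 0.0464 from limma).

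*CLB1* (YGR108W), the paralog of *CLB2*, averaged the other way. Its log2 signals were 11.56, 11.41 and 11.77 in H2B K37A cells, against 11.26, 11.46 and 11.53 in wild-type H2B cells. H2B K37A replicates 1 and 3 lay above all wild-type H2B arrays and replicate 2 among them. The difference of 0.16 (standard error 0.11, interval -0.09 to 0.42, adjusted p = 0.314 from limma) did not pass. It was 0.07 without H2B K37A replicate 3, 0.09 without wild-type H2B replicate 1, 0.25 without H2B K37A replicate 2 and 0.02 with array weights.

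*SIC1* (YLR079W), whose product holds Clb kinases inactive until S phase, had log2 signals of 10.39, 10.36 and 10.50 in H2B K37A cells, against 10.41, 10.43 and 10.35 in wild-type H2B cells. The 6 arrays were interleaved. The difference was 0.02 (adjusted p = 0.809 from limma, standard error 0.05), with an interval of -0.10 to 0.14 that leaves room for ratios of 0.935 to 1.10. It was the most tightly measured of the 10 genes, with an SD within strains of 0.0600.

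**Figure D2:**
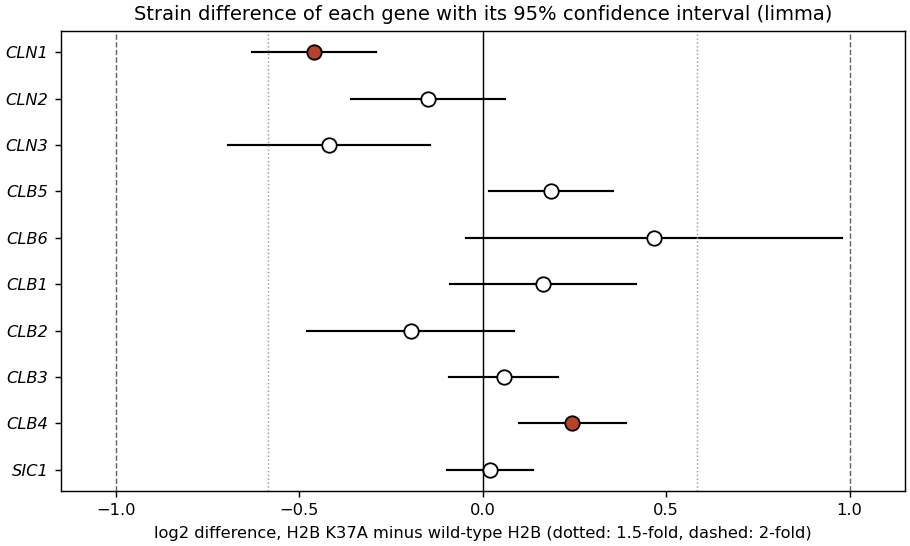
Log2 difference of each gene, H2B K37A minus wild-type H2B (horizontal axis), with its 95% confidence interval from limma; filled points passed the adjusted p of 0.05. The 10 intervals lie inside the dashed 2-fold lines, and those of *CLN1*, *CLN3* and *CLB6* cross a dotted 1.5-fold line.

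As a group, all 10 intervals lay within a 2-fold change in either direction and 7 lay within 1.5-fold, those of *CLN1*, *CLN3* and *CLB6* being the exceptions. Over all tested probe sets 20 reached a 2-fold difference. Exact permutation tests of single genes, two-sided, gave 0.1 for the 5 genes whose groups did not overlap, the smallest p that 3 arrays against 3 allow, and 0.3 for *CLN2* and *CLB2*, 0.4 for *CLB1* and *CLB3* and 0.8 for *SIC1*. Each gene lay at least 2.60 log2 units above background, as did most genes: 98.4% of all tested probe sets exceeded it. Background was 6.29, the 95th percentile of the 1746 probe sets annotated to genes outside the *S. cerevisiae* table. The SD within strains exceeded the median of all tested probe sets, 0.0676, for every member but *SIC1*. It lay at the 91.3rd, 93.1st, 93.8th and 99.6th percentile for *CLB1*, *CLN3*, *CLB2* and *CLB6*. Since probes differ in affinity, the signals do not rank the cyclins by abundance, and no order of their levels is given.

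The 10 genes also shared a pattern among the replicates of a strain. H2B K37A replicate 3 was the highest H2B K37A array for 8 of the 10 genes, the exceptions being *CLN1* and *CLB4*, and was the lowest for none. Over all tested probe sets it was the highest for 44.0% and the lowest for 39.0%. Among wild-type H2B arrays, replicate 1 was the highest for none of the 10 genes and the lowest for 6, against 50.5% and 23.1% of all tested probe sets. These arrays also stand at the ends of the first principal component of all tested probe sets (71.5% of the variance), where H2B K37A arrays had coordinates of 2.38, 7.51 and 12.8, against -9.88, -6.97 and -5.89 for wild-type H2B arrays. With both arrays left out, an alternative chosen after the data were seen, *CLN1* differed by -0.46 (adjusted p = 0.0694 from limma), *CLB4* by 0.21 (adjusted p = 0.166 from limma), *CLB1* by -0.01 and none of the 10 genes passed.

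The paralog pairs allow a comparison within each array, in which shifts common to an array cancel. The ratio itself reflects the probes as well as the transcripts, so that only its difference between strains is read, and whether the probes of one paralog also bind the other was not tested. The log2 ratio of *CLB1* over *CLB2* was 1.11, 0.94 and 0.91 on the H2B K37A arrays, against 0.56, 0.54 and 0.77 on the wild-type H2B arrays. Every H2B K37A array lay above every wild-type H2B array, with a difference of 0.36. The log2 ratio of *CLB3* over *CLB4* was 0.67, 0.54 and 0.68 on the H2B K37A arrays, against 0.85, 0.76 and 0.85 on the wild-type H2B arrays, a difference of -0.19 and again without overlap.

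The log2 ratio of *CLB5* over *CLB6* was 0.91, 0.91 and 0.27 on the H2B K37A arrays, against 0.93, 1.06 and 0.95 on the wild-type H2B arrays. H2B K37A replicate 3 accounted for most of the difference of -0.28, which was -0.07 without it. The log2 ratio of *CLN1* over *CLN2* was -1.19, -1.48 and -1.55 on the H2B K37A arrays, against -0.97, -1.25 and -1.07 on the wild-type H2B arrays, a difference of -0.31 with overlapping groups. Over these 4 pairs, two-sided exact permutation tests gave 0.1 for the *CLB* pairs, the smallest p the design allows, and 0.2 for *CLN1* over *CLN2* (0.133 and 0.2 after Benjamini-Hochberg adjustment over the 4 pairs). No pair could have passed at this number of arrays.

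**Figure D3:**
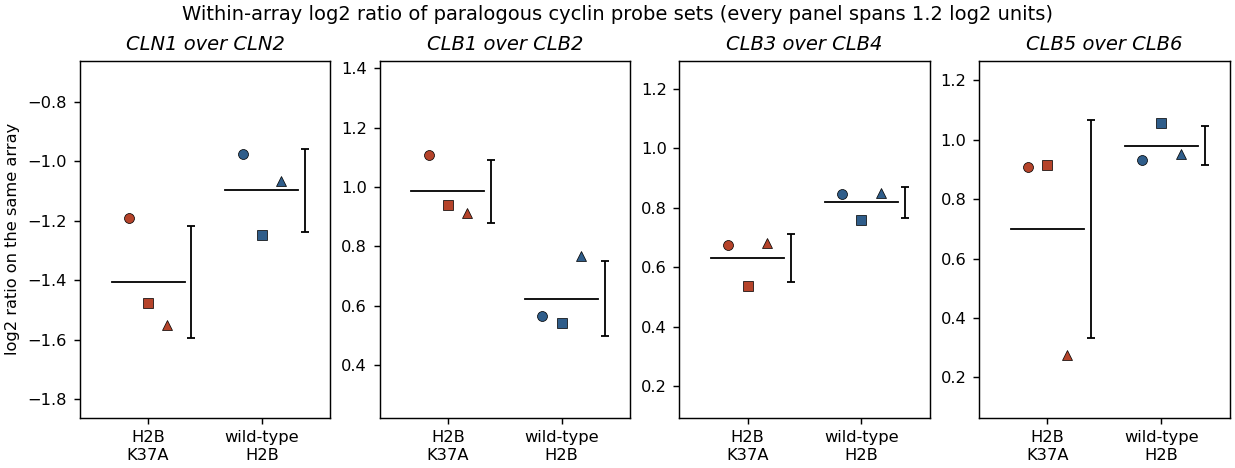
Log2 ratio of 2 paralogous probe sets on the same array (vertical axis) in H2B K37A cells (left) and wild-type H2B cells (right), with the mean as a line and the SD as a bar; circles, squares and triangles are replicates 1, 2 and 3. The *CLB1* over *CLB2* ratios of 0.91 to 1.11 in H2B K37A cells lie above the 0.54 to 0.77 of wild-type H2B cells.

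Mitotic and S-phase cyclin genes also lie in pairs on the chromosomes. In the gene table of assembly R64, *CLB1* and *CLB6* are listed next to each other, as are *CLB2* and *CLB5*, and the systematic names place the members of each pair on opposite strands. The neighbours *CLB1* and *CLB6* had log2 differences of 0.16 and 0.47, and the neighbours *CLB2* and *CLB5* had -0.20 and 0.19. None of the 4 passed the test.

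*CLB6*, as the gene with the largest difference, was set against the profile of every other gene over the 6 arrays, each gene centred on its own mean. The smallest root mean square differences among 5448 genes were those of *YOX1* (0.0867), a homeodomain repressor, *CDC6* (0.108), which loads the replicative helicase, *PPM2* (0.120), a tRNA methyltransferase, *TCA17* (0.123), a TRAPP complex subunit, and *VTS1* (0.123), an RNA-binding protein. All 5 were highest on H2B K37A replicate 3, as *CLB6* was. *CDC6* had log2 signals of 8.69, 8.76 and 9.40 in H2B K37A cells, against 8.33, 8.61 and 8.43 in wild-type H2B cells, and *YOX1* had 9.57, 9.83 and 10.41 in H2B K37A cells, against 9.26, 9.45 and 9.43 in wild-type H2B cells. None of the 5 passed the adjusted p (0.0529 to 0.273 from limma), and these 6 arrays are the same ones on which the profiles were matched, so the likeness is a description.

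**Figure D4:**
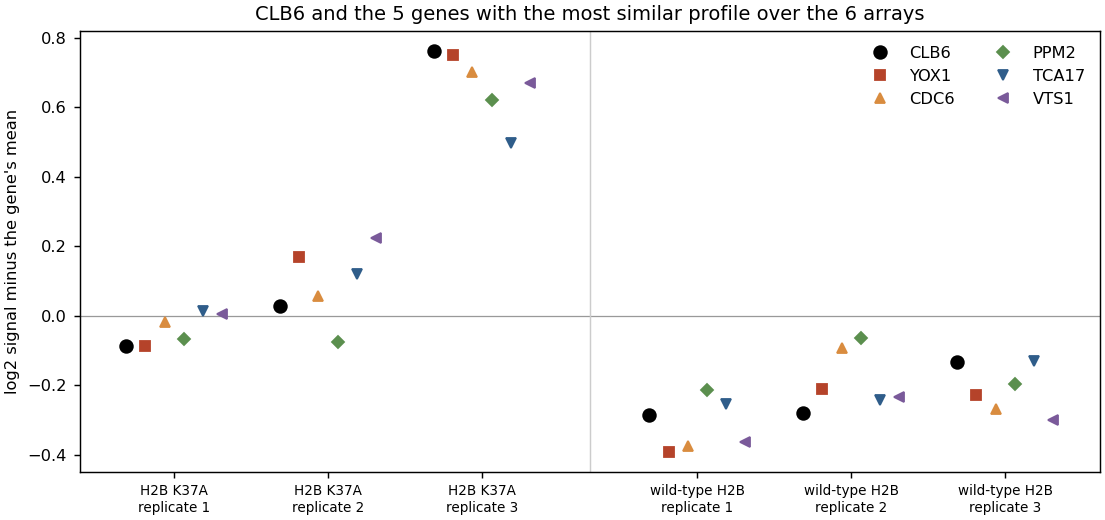
Log2 signal of *CLB6* and of the 5 genes nearest to it, each minus its own mean over the 6 arrays (vertical axis), for the H2B K37A replicates (left of the line) and the wild-type H2B replicates (right). All 6 genes are highest on H2B K37A replicate 3.

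The partners, regulators and co-expressed genes of the cyclins were read in the same fit, from 12 lists of the pathway. Of their 126 genes, counted once each, 4 were higher and 13 were lower in H2B K37A cells, 13.5% in all, against 14.5% of all tested probe sets. With 4 lists of markers of other cell states the count was 28 of 161 genes (17.4%). This last count depended on single arrays: 0 of the list genes passed without H2B K37A replicate 2 or without wild-type H2B replicate 2, 1 without wild-type H2B replicate 1, 4 without wild-type H2B replicate 3, 20 without H2B K37A replicate 3 and 41 without H2B K37A replicate 1. The probe sets called in all moved with them, at 7, 2, 55, 135, 501 and 1140. *ACT1*, the actin gene used as a reference by the study, differed by -0.01 (adjusted p = 0.865 from limma).

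Among 10 genes for the kinase, its subunits and its modifiers, 2 passed as lower and none as higher. That is 20%, against 14.5% of all tested probe sets, and the median difference was -0.08. *MIH1*, the phosphatase that removes the inhibitory phosphate from Cdc28, fell by 0.26 (adjusted p = 0.0325 from limma) and *BCK2*, which promotes G1 transcription in parallel to Cln3, fell by 0.20 (adjusted p = 0.0460 from limma). *CDC28* itself had log2 signals of 11.57, 11.57 and 11.46 in H2B K37A cells, against 11.69, 11.65 and 11.59 in wild-type H2B cells. That difference of -0.11 did not pass (adjusted p = 0.147 from limma). *FAR1*, the inhibitor of Cln kinases in the pheromone response, is named for its size after its values were seen: its log2 signals were 10.46, 10.81 and 11.11 in H2B K37A cells, against 10.34, 10.26 and 10.33 in wild-type H2B cells, a difference of 0.48 (adjusted p = 0.0746 from limma).

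Of 10 genes of the G1/S transcription machinery, 1 was lower and 9 did not pass, with a median of -0.04. The share called was 10%, against 14.5% of all tested probe sets. *SRL3*, a relative of the Start inhibitor *WHI5*, had log2 signals of 10.95, 10.81 and 10.46 in H2B K37A cells, against 11.88, 11.76 and 11.54 in wild-type H2B cells. It fell by 0.98 (standard error 0.14, ratio 0.506, adjusted p = 0.0178 from limma), a larger change than that of any cyclin. *WHI5* differed by 0.06 (adjusted p = 0.824 from limma) and *SWI4*, the DNA-binding subunit of SBF, by -0.11 (adjusted p = 0.353 from limma).

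Of 8 G2/M and M/G1 transcription factors, 1 was higher and 7 did not pass, with a median of 0.11. The share called was 12.5%, against 14.5% of all tested probe sets. *YHP1*, a homeodomain repressor of M/G1 genes, rose by 0.74 (adjusted p = 0.0353 from limma). *SWI5*, an activator of *SIC1*, differed by -0.16 (adjusted p = 0.0627 from limma), its groups not overlapping.

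The destruction machinery of the cyclins was read from the lists of its ubiquitin ligases and of mitotic exit. None of 6 genes of the SCF ubiquitin ligase passed, and *GRR1*, the F-box protein that targets Cln1 and Cln2, had the largest difference, 0.18 (adjusted p = 0.171 from limma). Of 15 genes of the anaphase-promoting complex and its activators, 1 was lower, 6.67% against 14.5% of all tested probe sets. *CDC20*, the activator that starts the destruction of mitotic cyclins, fell by 0.29 (adjusted p = 0.0464 from limma). Of 12 genes of the mitotic exit network, which ends with high Sic1 and low Clb activity, 3 were lower and 9 did not pass. The share called was 25%, against 14.5% of all tested probe sets, and the median was -0.01. The kinase gene *CDC15* fell by 0.37 (adjusted p = 0.0176 from limma), *SPO12*, which aids the early release of Cdc14, by 0.35 (adjusted p = 0.0193 from limma), and the kinase gene *DBF2* by 0.30 (adjusted p = 0.0146 from limma).

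*DBF2* had log2 signals of 11.19, 11.24 and 11.20 in H2B K37A cells, against 11.48, 11.52 and 11.52 in wild-type H2B cells, and these tight groups lay far apart for their spread. Of 14 cyclins of other kinases, 1 was higher, 3 were lower and 10 did not pass, with a median of 0.03. The share called was 28.6%, against 14.5% of all tested probe sets. *PCL7* and *PCL5*, cyclins of the kinase Pho85, fell by 0.34 and 0.24, *SSN8*, the cyclin of the Mediator kinase module, fell by 0.28, and *PCL9*, a Pho85 cyclin of M/G1, rose by 0.26 (adjusted p from limma 0.0340, 0.0401, 0.0218 and 0.0462).

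The genes transcribed alongside the cyclins were counted by the phase of their peak, beside the 14.5% of all tested probe sets called. Of 18 G1/S-expressed genes, the class of *CLN1*, *CLN2*, *CLB5* and *CLB6*, 1 was lower and 17 did not pass (5.56% called, median -0.03). The lower gene was *CDC21*, thymidylate synthase, which fell by 0.21 (adjusted p = 0.0215 from limma). None of 3 measured H3 and H4 genes of 4 listed passed, and *HHT1*, an H3 gene, differed by 0.12 (adjusted p = 0.0570 from limma). Of 13 G2/M genes, the class of *CLB1* and *CLB2*, 2 were lower and 11 did not pass (15.4% called, median -0.05). Besides *CDC20* the kinase gene *KIN3* fell by 0.45 (adjusted p = 0.0215 from limma).

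The M/G1 class to which *SIC1* and the cell separation genes belong held calls of both signs. Of its 16 genes, 3 were higher, 1 was lower and 12 did not pass, with a median of 0.10. The share called was 25%, against 14.5% of all tested probe sets. The cell separation genes *DSE4* and *EGT2* rose by 0.35 and 0.33, as did *PCL9* above, and *RME1*, a repressor of meiosis that also acts on *CLN2*, fell by 0.24 (adjusted p from limma 0.0227, 0.0285, 0.0462 and 0.0432). None of 8 M/G1 genes of the Mcm1 class, to which *CLN3* belongs, passed, with a median of 0.03, and *CDC6* had the largest difference of them, 0.49 (adjusted p = 0.123 from limma).

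**Figure D5:**
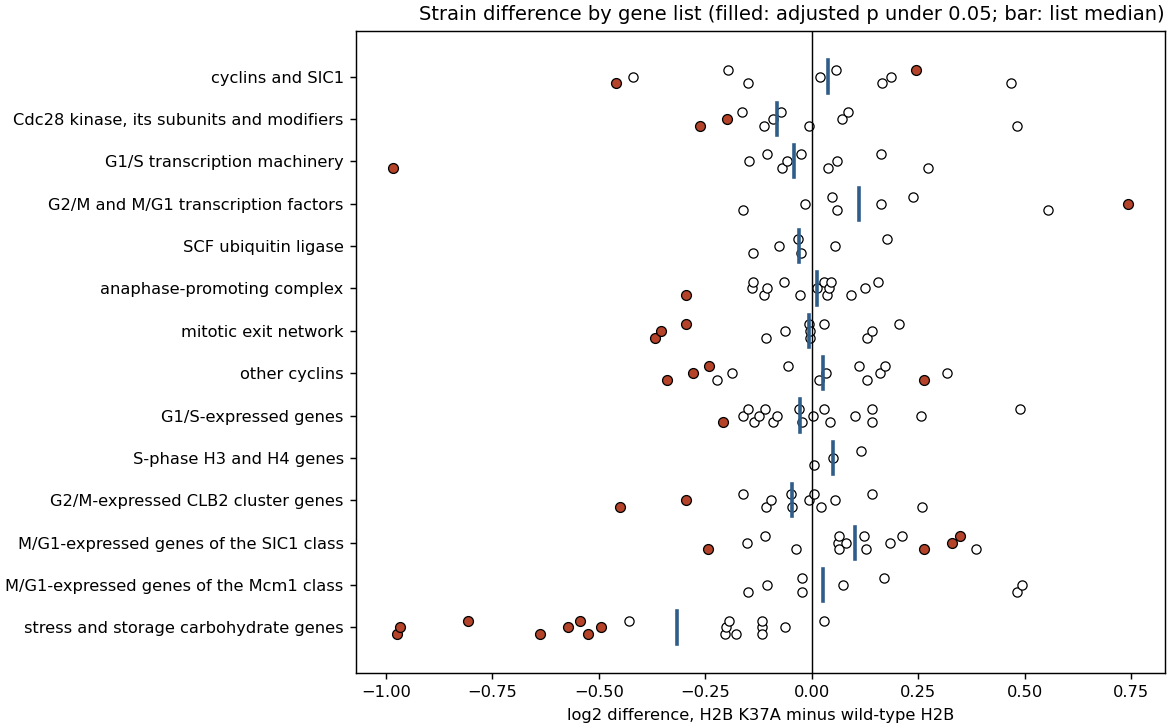
Log2 difference, H2B K37A minus wild-type H2B (horizontal axis), of each gene of the lists named at the left; filled points passed the adjusted p of 0.05 from limma and bars mark list medians. The cyclins and *SIC1* straddle zero with a median of 0.04, and the stress and storage carbohydrate genes lie to the left with a median of -0.32.

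Lists of markers of other cell states were read beside these results. All 7 *MATa*-specific genes lay above background and none passed (*BAR1*, the protease that cleaves alpha factor, had the largest difference, 0.20, adjusted p = 0.153 from limma). The log2 of their summed signals, in which bright probe sets weigh most, was 15.34 to 15.46 on the H2B K37A arrays and 15.33 to 15.38 on the wild-type H2B arrays. Of 4 *MATalpha*-specific genes, 1 was higher (25%, against 14.5% of all tested probe sets). It was *SAG1*, the alpha-agglutinin gene, by 0.22 (adjusted p = 0.0463 from limma). *STE3*, the receptor for a-factor, named after its values were seen, differed by -0.20 without overlap (adjusted p = 0.0506 from limma). Of the 4 *MATalpha*-specific genes, 3 lay above background: *MF(ALPHA)2*, *STE3* and *SAG1*, with means over the arrays of 7.91, 8.57 and 10.21. With dim probe sets filtered out, which leaves these 3, 2 of them passed. The pheromone gene *MF(ALPHA)1* lay below background at 5.77 in H2B K37A cells and 5.75 in wild-type H2B cells. The log2 of the summed signals was 10.85 to 10.99 in H2B K37A cells and 10.78 to 10.86 in wild-type H2B cells. All 6 meiotic genes lay above background, and 33.3% of them were called, against 14.5% of all tested probe sets. *SPO13*, a regulator of the first meiotic division, was higher by 0.30. The kinase gene *IME2* fell by 0.32 (adjusted p from limma 0.0218 and 0.0447). The log2 of the summed signals was 11.06 to 11.34 in H2B K37A cells and 11.29 to 11.49 in wild-type H2B cells.

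Of 18 stress and storage carbohydrate genes, 8 passed as lower and none as higher, 44.4% against 14.5% of all tested probe sets, with a median of -0.32. The count was 1 over all probe sets of the array, 0 without H2B K37A replicate 2 or any 1 wild-type H2B array, 5 without H2B K37A replicate 3 and 10 without H2B K37A replicate 1. Those that fell furthest were *DDR2*, a stress-induced gene, and *GPH1*, glycogen phosphorylase, both by 0.97, *GLG1*, glycogenin, by 0.81, and *GSY1*, glycogen synthase, by 0.64. The log2 of the summed signals of the list was 16.96, 16.91 and 16.70 on the H2B K37A arrays, against 17.31, 17.16 and 17.11 on the wild-type H2B arrays. It was lowest on H2B K37A replicate 3 and highest on wild-type H2B replicate 1, the arrays that stood out for the cyclins. Its part in the cyclin results was not tested.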

How the data were processed

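The RNA of 3 H2B K37A and 3 wild-type H2B cultures, grouped by the sample labels, was measured on 1 array each. Acid-extracted histones stand as the source in the labels and total RNA as the molecule; RNA, as in the study's methods, was assumed. The authors used Affymetrix Expression Console and its RMA summary and deposited log2 values of 10928 probe sets; their versions are not given in the sources at hand. RMA makes the arrays alike in distribution and so removes any shift common to most transcripts. It also compresses signals near background.

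The platform annotation named the probe sets and gives 7244 of them 1 symbol, 1 several and 3683 none. The 5498 with a match in the gene table of *S. cerevisiae* R64, for 5449 genes, were tested. That table served for names and neighbours, and since no build is named for the arrays, no coordinates are given. limma 3.58.1 in R 4.3.3 (lmFit and eBayes) fitted the strain as the only term to all tested probe sets, with Benjamini-Hochberg adjustment over them and two-sided p-values. Where a gene has several probe sets, the brightest on average was used. The fit was tested on simulated data.

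The members, the gene lists and the rule for named genes were chosen with earlier results of these data known. The rule takes all 10 members, up to 4 genes of each list with the largest differences among those past the threshold, or the 1 with the largest difference where none passed, the regulators *CDC28*, *SWI4*, *SWI5*, *WHI5* and *CDC20*, *ACT1*, and the 5 genes nearest in profile to the member with the largest difference.

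The alternatives varied the probe sets (every probe set of the array, those brighter than the 95th percentile of background, or the average of a gene's probe sets), the scaling (a repeated quantile normalization or centring on the median), the model (replicate number as block, intensity trend or array weights) and the arrays, leaving out each in turn. Precision is limited by the 3 arrays per strain, and p-values measure the spread between cultures grown at the same time.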

Additional observations from a re-analysis of the deposited data

How the results depend on the processing

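Of the 10 genes, *SIC1* and *CLB1* changed sign under some alternative. *SIC1*, at 0.02, was -0.023 without H2B K37A replicate 3, -0.00086 without wild-type H2B replicate 3, -0.018 without H2B K37A replicate 3 and wild-type H2B replicate 1 together, and -0.028 with array weights. *CLB1* was -0.0057 without those 2 arrays. The cause of these and the following changes was not tested.

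Over all probe sets of the array, *CLB4* (0.24, adjusted p = 0.0968) did not pass, and 1 of the 10 genes, 9 list genes and 281 of all probe sets passed, against 2, 28 and 798. *CLN3* passed with quantile normalization again (-0.42, adjusted p = 0.0497) and with an intensity trend (-0.42, adjusted p = 0.0329). With array weights *CLN2* (-0.24), *CLN3* (-0.57), *CLB5* (0.17) and *CLB2* (-0.33) passed too, and the counts were 6 of the 10 genes, 65 list genes and 1956 in all. Without the 2 arrays at the ends of the first component, chosen after seeing the data, *CLN1* (-0.46, adjusted p = 0.0694) and *CLB4* (0.21, adjusted p = 0.166) did not pass, and the counts were 0, 8 and 129. These p-values are from limma.

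With 1 array left out, the differences were -0.51 to -0.39 for *CLN1*, 0.20 to 0.30 for *CLB4*, -0.33 to -0.13 for *CLB2* and -0.023 to 0.048 for *SIC1*. Between 0 and 2 of the 10 genes passed, 0 to 41 list genes and 2 to 1140 of all probe sets. *CLB6* ranged over 0.20 to 0.63, *CLN3* over -0.50 to -0.31, *CLN2* over -0.24 to -0.10, *CLB1* over 0.07 to 0.25, *CLB3* over 0.02 to 0.11 and *CLB5* over 0.14 to 0.24, none of them passing, and the paralog ratios kept their signs.

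Whether the replicate numbers pair the arrays was not settled. Deviations from the strain means correlated at 0.40, -0.29 and 0.23 for numbers 1, 2 and 3, and arrays of unlike number were not compared. With the number as a block, *CLB5* passed (0.19, adjusted p = 0.0373 from limma), *CLN1* and *CLB4* passed as before, and 3 of the 10 genes, 32 list genes and 947 in all were called.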
